A study of Homo sapiens with 27 samples.

Results

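The genes described here are 37 genes of cholesterol and fatty acid synthesis, taken by gene symbol from a table of 20268 protein-coding genes. They were listed from knowledge of the pathways, but with earlier results of these data known. Their counts beside the shares of all genes are therefore descriptions. They comprise 7 enzymes of the mevalonate steps, 11 enzymes from squalene to cholesterol, 6 genes of the SREBP system, 4 genes of fatty acid synthesis, 5 genes of fatty acid elongation and desaturation, and 4 genes around the liver X receptor (LXR). All 37 symbols had a row in the table. RNA-seq was performed on LNCaP, LNCaP95 and 22Rv1 prostate cancer cells infected with lentivirus that carried a control hairpin (CTRL sh) or either of 2 hairpins against CPSF1 (CPSF1 sh1, CPSF1 sh2), a core subunit of the complex that cleaves and polyadenylates pre-mRNA. Each of these 9 groups had 3 replicates, 27 libraries in all. All cells, those with CTRL sh included, were puromycin-selected pools that were expanded, plated at 500000 cells per well and harvested after 72 h. LNCaP and 22Rv1 cells grew in RPMI medium with fetal bovine serum and LNCaP95 cells, a derivative of LNCaP, in the same medium without phenol red. In comparisons with LNCaP95, line and medium therefore cannot be told apart. Each line is 1 culture model, and whether the replicates came from separate infections is not given in the sources used here, so that p-values measure the spread between these samples.

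Cells make cholesterol from acetyl-CoA through mevalonate, isoprenoid units, squalene and lanosterol, and make fatty acids from the same acetyl-CoA through malonyl-CoA. When sterols are scarce, the protein SCAP carries the transcription factors SREBP-1 and SREBP-2 (genes SREBF1 and SREBF2) from the endoplasmic reticulum to the Golgi, where they are cut and released to activate nearly every enzyme gene of both routes, while the INSIG proteins hold SCAP back when sterols are plentiful. In prostate cancer cells lipid synthesis is high and is stimulated by androgen.

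Promoter sequences are shown because SREBP is known to act at sterol regulatory elements together with the factor NF-Y at CCAAT boxes, and the genes below are the ones whose levels the results turn on. RefSeq promoter windows (GRCh38.p14, 250 bases before to 50 after a start site) matched 32 of the 37 genes, and ACAT2, SQLE, FDFT1, ABCG1 and FASN had none in the table. Each run is 30 bases, 5′ to 3′ on the gene's strand, with the matched motif in capitals.
SREBF2, sterol regulatory element letters, chr22:41832962-41832991, plus strand: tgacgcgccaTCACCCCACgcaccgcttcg
INSIG1, E-box letters, chr7:155297811-155297840, plus strand: gccgggcaggctCACGTGatgcgggccccg
INSIG1, CCAAT on the other strand, chr7:155297696-155297725, plus strand: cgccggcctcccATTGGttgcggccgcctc
HMGCS1, CCAAT on the other strand, chr5:43313495-43313524, minus strand: ctaccggccgcgATTGGctgtgggagccac
STARD4, CCAAT, chr5:111512679-111512708, minus strand: atttatcggccaCCAATcagccctccacac
SCD, CCAAT, chr10:100347035-100347064, plus strand: aattcccttcggCCAATgacgagccggagt
The letters TCACNCCAC were present in a window of 1 of the 32 genes (3.12%), SREBF2, and of 1.39% of all 27305 genes with a window. The letters CCAAT were present for 24 of the 32 genes (75.0%) and for 39.7% of all genes. CACGTG was present for 6 of the 32 (18.8%), namely LSS, SC5D, SCAP, INSIG1, ELOVL5 and ABCA1, and for 8.77% of all genes. Motifs were searched on both strands (CACGTG reads the same on both), a gene counted once however many windows it had, and none of the matches in the runs above overlapped another motif. The 27305 genes were not limited to the 20268 protein-coding genes of the count table or to expressed genes. A gene with several windows had more chances of a match, so that the shares are not of like sets. A match describes letters in these windows and does not show a bound site. The absence of a match does not show that a gene lacks such an element, since only exact letters in these windows were searched.

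Libraries held 8515624 to 15904518 counts on genes. CPSF1 mRNA itself was lower with the hairpins in every line. LNCaP cells showed a log2 fold change of -0.65, LNCaP95 cells one of -0.89 and 22Rv1 cells one of -0.50, and every CPSF1 sh library lay below every CTRL sh library of its line. All 9 listed markers of prostate luminal epithelium were above 2 CPM (counts scaled to a common library size) in all libraries, while KRT5, KRT14 and TP63 of basal cells and PTPRC and CD3E of leukocytes were below that level in at least 1 library of each line. The summed luminal markers were lower with CPSF1 sh in LNCaP (3595 to 3831 against 4176 to 4254 CPM) and LNCaP95 (3361 to 3509 against 4376 to 4543 CPM) and overlapped in 22Rv1. The summed leukocyte markers, of which CD68 alone passed 2 CPM in every LNCaP and LNCaP95 library, were higher with CPSF1 sh than with CTRL sh (10.0 to 18.0 against 2.98 to 3.60 CPM in LNCaP, 16.3 to 34.9 against 6.47 to 9.48 in LNCaP95), as were the summed fibroblast and smooth muscle markers (75.9 to 93.4 against 44.2 to 50.4 CPM in LNCaP, 107.9 to 132.4 against 69.3 to 86.4 in LNCaP95, 24.2 to 29.2 against 18.3 to 22.7 in 22Rv1), with DCN below 2 CPM in at least 1 library of each line. The summed endothelial markers were lower with CPSF1 sh in LNCaP (from 22.3 to 28 CPM with CTRL sh to 9.3 to 12.7 with CPSF1 sh), with CDH5 below 2 CPM in at least 1 library. In LNCaP95 their sum was higher (1.71 to 4.36 against 0.686 to 1.26 CPM). The summed markers of hepatocytes and adipocytes were lower with CPSF1 sh in 22Rv1 (441 to 488 against 523 to 554 CPM), where ALB alone passed 2 CPM in every library. Their sum was higher with CPSF1 sh in LNCaP (2.61 to 48.5 against 0.789 to 1.42 CPM) and LNCaP95 (3.4 to 4.36 against 1.37 to 2.34 CPM). None of these markers passed 2 CPM in every library of those 2 lines. The part of all these markers in the results was not tested.

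The library LNCaP CPSF1 sh1 replicate 3 stood apart. Of 47 genes above 50 CPM in every 22Rv1 CTRL sh library and below 0.5 CPM in every LNCaP CTRL sh library, all were present there, at 4.65 to 8.99% (median 6.31%) of their 22Rv1 level, against medians of at most 0.195% in the other 8 LNCaP libraries. Most sterol enzymes had more mRNA in 22Rv1 than in LNCaP CTRL sh libraries, as given next. The LNCaP counts of the 37 genes and of their groups, and the LNCaP fold changes of the genes described in full, are given with and without this library.

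Without CPSF1 hairpins, most of the 37 genes already differed in level between the lines, as did most of all genes. Per kilobase of exon, the most abundant in LNCaP CTRL sh libraries were SCD (249 CPM per kilobase), FASN (248) and ACLY (176), in LNCaP95 FASN (386), SCD (372) and FADS2 (227), and in 22Rv1 SCD (297), FASN (171) and ACLY (145). These encode the enzymes that make oleate from stearate (SCD), palmitate (FASN), cytosolic acetyl-CoA (ACLY) and the first polyunsaturated intermediate (FADS2). The lowest in each line was ABCA1, a cholesterol exporter, at 0.240, 0.0124 and 0.194 CPM per kilobase. The order of SCD and FASN was not resolved beyond the spread between libraries in LNCaP or LNCaP95, where FASN stood at 2122 ± 100.2 and 3308 ± 542 CPM (SD, n = 3).

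Between CTRL sh libraries, LNCaP95 exceeded LNCaP for 22 of the 35 genes that could be tested in every line (41.0% of all genes) and lay below it for 8 (39.3%). In 22Rv1, 22 were above LNCaP (41.1% of all genes) and 10 below (41.4%), and 19 were above LNCaP95 (42.2%) and 11 below (42.1%). In either direction, 80.3% of all genes differed between LNCaP95 and LNCaP. These shares were 82.5% between 22Rv1 and LNCaP and 84.3% between 22Rv1 and LNCaP95, and those of the 35 genes were near them. Among the 18 enzymes of the sterol steps, 15 were higher in 22Rv1 than in LNCaP and 1 was lower, with a median log2 difference of 1.11. HMGCS1, which condenses acetyl-CoA units at the start of the route, stood at 122 ± 3.18 CPM in LNCaP, 187 ± 9.85 in LNCaP95 and 505 ± 22.9 in 22Rv1 (SD, n = 3). Genes of fatty acid synthesis and desaturation differed in both directions. FASN (0.62), SCD (0.56), FADS1 (0.33) and FADS2 (1.06) were higher in LNCaP95 than in LNCaP, and SCD (0.26), FADS1 (0.79) and ELOVL6 (1.05) were higher in 22Rv1 than in LNCaP, as log2 differences. FADS2 was lower in 22Rv1 than in LNCaP with a log2 difference of -2.35, and ELOVL6, which elongates palmitate to stearate, was lower in LNCaP95 than in LNCaP with a difference of -2.64.

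**Figure D1:**
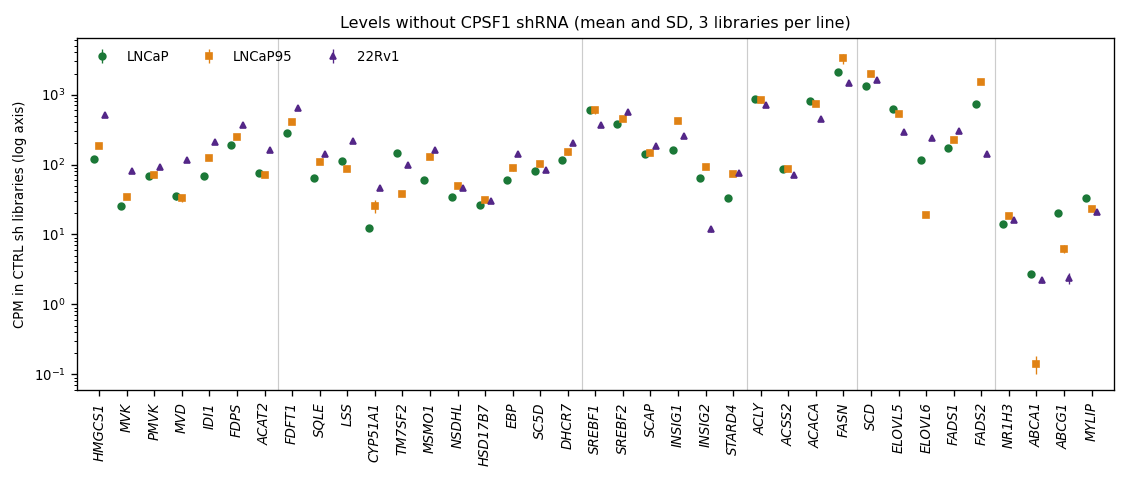
Level of each of the 37 genes in CTRL sh libraries, in CPM on a log axis, as the mean and SD of 3 libraries for LNCaP (circles), LNCaP95 (squares) and 22Rv1 (triangles), with grey lines between pathway groups. Most sterol enzymes on the left have the triangle on top, while INSIG2, ELOVL5 and FADS2 have it at the bottom.

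The first question was how these genes responded to CPSF1 knockdown in each line, with 6 CPSF1 sh libraries compared with 3 CTRL sh libraries by edgeR's quasi-likelihood test, adjusted over all genes tested. Calls use an adjusted p below 0.05, a gene was tested in a line where each of the 9 libraries exceeded 2 CPM, and fold changes are log2 of CPSF1 sh over CTRL sh. These calls pool the 2 hairpins, and some genes not called were called with 1 hairpin alone. In LNCaP95 cells 26 of the 36 genes tested fell (33.7% of all genes fell), 1 rose (33.2% of all genes rose) and 9 were not called, with a median log2 fold change of -0.39 against 0.0013 over all genes. In 22Rv1 cells 27 of 36 fell (14.3% of all genes), 2 rose (12.7%) and 7 were not called, with a median of -0.36 against -0.0024. In LNCaP cells the picture was mixed: 10 of 37 rose (31.1% of all genes), 14 fell (31.0%) and 13 were not called, with a median of -0.018 against -0.00036. Without LNCaP CPSF1 sh1 replicate 3 the LNCaP counts were 9 higher and 16 lower, with a median of -0.032. With library size alone in place of TMM scaling, 4 genes rose and 23 fell in LNCaP95 (median -0.30), while the median of all genes there moved to 0.0883 and the share of called genes that were higher went from 49.6 to 62.2%. ABCA1 in LNCaP95 and ABCG1 in 22Rv1 were below the level for testing. In bulk libraries fewer cells of a kind and less RNA per cell cannot be told apart.

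The 10 that rose in LNCaP were 7 sterol enzymes (HMGCS1, MVK, CYP51A1, NSDHL, EBP, SC5D and DHCR7), the SREBP escort SCAP, NR1H3 and ABCA1. ELOVL6 was the 1 gene that rose in LNCaP95, and SCAP and ABCA1 were the 2 that rose in 22Rv1. Both 22Rv1 calls were lost without CTRL sh replicate 2 and without CTRL sh replicate 3 (SCAP 0.16 to 0.18, adjusted p up to 0.0884, and ABCA1 0.70 to 0.71, adjusted p up to 0.0579). Together the 37 genes took 0.969 to 0.999% of the counts in LNCaP CTRL sh libraries and 0.822 to 0.903% in CPSF1 sh libraries. In LNCaP95 the share was 1.16 to 1.33% against 0.762 to 0.889%, and in 22Rv1 it was 1.00% in each control against 0.717 to 0.854%. The groups did not overlap in any line. The sum weighs the most abundant genes most. In LNCaP, SCD went from 1333 to 893 CPM and FADS2 from 722 to 427. The 18 sterol enzymes there had a median log2 fold change of 0.14, or 0.11 without CPSF1 sh1 replicate 3.

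**Figure D2:**
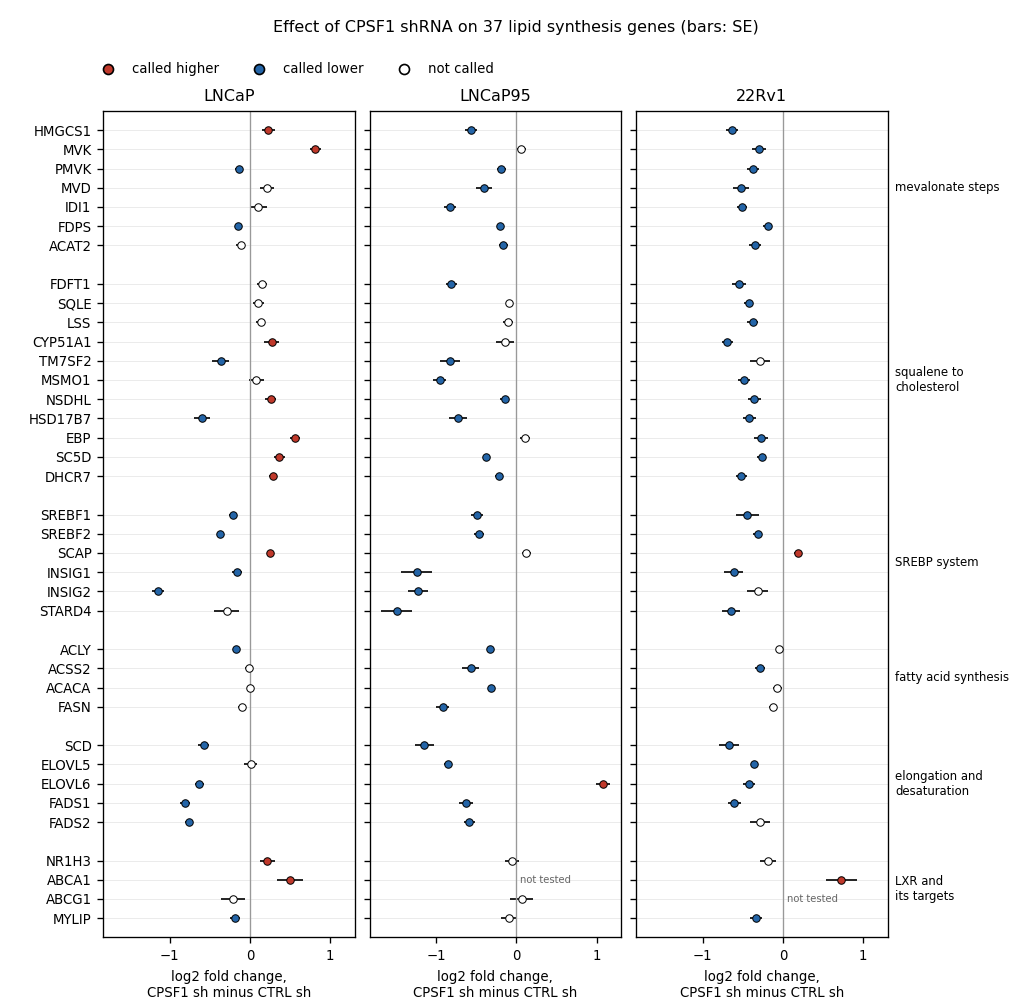
Log2 fold change of each gene (CPSF1 sh minus CTRL sh) in LNCaP, LNCaP95 and 22Rv1 cells, grouped by pathway, with bars for the standard error and fill for the call (adjusted p below 0.05, edgeR). The sterol enzymes at the top lie on both sides of 0 in LNCaP, where 7 were called higher and 4 lower, and at or below 0 in 22Rv1, where 17 of 18 were called lower. Of all genes, 31.1% rose and 31.0% fell in LNCaP, and 14.3% fell in 22Rv1.

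Of the 35 genes tested in all 3 lines, 8 (22.9%) fell in every line, against 4.90% of all genes: PMVK, FDPS, HSD17B7, SREBF1, SREBF2, INSIG1, SCD and FADS1. None rose in every line. HSD17B7, SREBF2, SCD and FADS1 kept the call in each line when each library was left out in turn. The other 4 lost it in at least 1 line for at least 1 library, as given with each gene. By hairpin, FDPS, PMVK and INSIG1 in LNCaP and FDPS in 22Rv1 were called lower with sh2 but not with sh1. With sh1 the LNCaP values were -0.079 (adjusted p = 0.0814), -0.11 (0.061) and -0.078 (0.171), and FDPS in 22Rv1 had -0.11 (0.0812). Without LNCaP CPSF1 sh1 replicate 3, sh1 called FDPS (-0.11, adjusted p = 0.0195) and INSIG1 (-0.12, adjusted p = 0.045) in LNCaP but not PMVK (-0.078).

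The 7 mevalonate enzymes build the isoprenoid units that become squalene. In LNCaP 2 rose and 2 fell, in LNCaP95 none rose and 6 fell, and in 22Rv1 all 7 fell, with median log2 fold changes of 0.10, -0.20 and -0.37. Without LNCaP CPSF1 sh1 replicate 3, 2 rose and 3 fell in LNCaP with a median of 0.029. Of all genes tested in LNCaP 31.1% rose and 31.0% fell, and the LNCaP counts were near those shares. For LNCaP95 the shares were 33.2% and 33.7%, and for 22Rv1 12.7% and 14.3%. HMGCS1 went from 122 ± 3.18 to 143 ± 18.7 CPM in LNCaP (SD, n = 3 and n = 6), from 187 ± 9.85 to 126 ± 12.4 in LNCaP95 and from 505 ± 22.9 to 325 ± 38.2 in 22Rv1. The log2 fold change of HMGCS1 was 0.23 (SE 0.0853, adjusted p = 0.0288) in LNCaP, -0.57 (SE 0.0735, adjusted p = 2.51e-05) in LNCaP95 and -0.63 (SE 0.0776, adjusted p = 8.69e-05) in 22Rv1. The LNCaP value of HMGCS1 was 0.17 (adjusted p = 0.0395) without CPSF1 sh1 replicate 3. The LNCaP rise was not called without any 1 of the 3 CTRL sh libraries or CPSF1 sh1 replicate 2 (0.20 to 0.25, adjusted p up to 0.0964), and 1 CPSF1 sh2 library lay within the control range. IDI1, which isomerizes isopentenyl diphosphate, fell by 0.83 on the log2 scale in LNCaP95 and by 0.51 in 22Rv1 and was not called in LNCaP (0.10). MVD, which decarboxylates mevalonate diphosphate, fell in LNCaP95 (-0.40, adjusted p = 0.00338) and 22Rv1 (-0.53, adjusted p = 0.00175) and was not called in LNCaP (0.21). ACAT2, a cytosolic thiolase that joins acetyl-CoA units, fell in 22Rv1 (-0.35) and LNCaP95 (-0.16), where the call was lost without CTRL sh replicate 1 or 3 (adjusted p up to 0.0761). In LNCaP its value was -0.12, called lower without CPSF1 sh1 replicate 3 (-0.15, adjusted p = 0.0171).

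MVK encodes mevalonate kinase. In LNCaP cells MVK stood at 26.3, 26.8 and 22.9 CPM with CTRL sh, at 47.8, 45.2 and 41.6 with CPSF1 sh1 and at 46.6, 43.5 and 43.1 with CPSF1 sh2. In LNCaP95 cells MVK stood at 34.4, 33.1 and 36.6 CPM with CTRL sh, at 34.8, 34.3 and 37 with CPSF1 sh1 and at 38.2, 35.5 and 37.5 with CPSF1 sh2. In 22Rv1 cells MVK stood at 80.8, 77.2 and 81.3 CPM with CTRL sh, at 69.7, 70.3 and 75.4 with CPSF1 sh1 and at 56.2, 59.8 and 56.2 with CPSF1 sh2. All CPSF1 sh libraries lay above the controls in LNCaP and below them in 22Rv1, while the groups overlapped in LNCaP95. MVK had a log2 fold change of 0.81 (SE 0.067, adjusted p = 1.1e-07) in LNCaP, 0.062 (SE 0.0607, adjusted p = 0.378) in LNCaP95 and -0.30 (SE 0.0866, adjusted p = 0.0183) in 22Rv1. With CPSF1 sh1 replicate 3 left out, MVK had 0.83 (adjusted p = 1.52e-07) in LNCaP. The 22Rv1 call was lost without CTRL sh replicate 1 or 3 (-0.29, adjusted p up to 0.0777). The gene overlaps MMAB on the opposite strand, and the counts are strand-specific.

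PMVK encodes phosphomevalonate kinase, the following enzyme. In LNCaP cells PMVK stood at 68.4, 66.3 and 71.2 CPM with CTRL sh, at 64.8, 65.1 and 61.1 with CPSF1 sh1 and at 62, 60.1 and 61.5 with CPSF1 sh2. In LNCaP95 cells PMVK stood at 74, 69.5 and 67.5 CPM with CTRL sh, at 64.5, 61.9 and 63.8 with CPSF1 sh1 and at 57.6, 64.4 and 58.1 with CPSF1 sh2. In 22Rv1 cells PMVK stood at 93.3, 85.7 and 96.8 CPM with CTRL sh, at 77.1, 73.4 and 80.2 with CPSF1 sh1 and at 66.3, 67.9 and 61.7 with CPSF1 sh2. Every CPSF1 sh library lay below every control of its line, but by little in LNCaP and LNCaP95. For PMVK the log2 fold change was -0.14 (SE 0.0443, adjusted p = 0.0136) in LNCaP, -0.19 (SE 0.0554, adjusted p = 0.00918) in LNCaP95 and -0.37 (SE 0.0747, adjusted p = 0.0025) in 22Rv1. PMVK in LNCaP was at -0.13 (adjusted p = 0.0239) when CPSF1 sh1 replicate 3 was left out. The call was lost in LNCaP without CTRL sh replicate 3 (-0.11, adjusted p = 0.0826) and in LNCaP95 without CTRL sh replicate 1 (-0.15, adjusted p = 0.0591).

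FDPS makes farnesyl diphosphate, the branch point to sterols, dolichol and protein prenylation. In LNCaP cells FDPS stood at 185, 186 and 193 CPM with CTRL sh, at 169.9, 177 and 187 with CPSF1 sh1 and at 164, 162 and 162 with CPSF1 sh2. In LNCaP95 cells FDPS stood at 251, 243 and 254 CPM with CTRL sh, at 226, 217 and 218 with CPSF1 sh1 and at 212, 212 and 215 with CPSF1 sh2. In 22Rv1 cells FDPS stood at 361, 369 and 381 CPM with CTRL sh, at 335, 331 and 362 with CPSF1 sh1 and at 300.2, 317 and 303 with CPSF1 sh2. In LNCaP and 22Rv1 the library of CPSF1 sh1 replicate 3 lay above the lowest control, and in LNCaP95 the groups did not overlap. The log2 fold change of FDPS was -0.14 (SE 0.0459, adjusted p = 0.0128) in LNCaP, -0.20 (SE 0.0391, adjusted p = 0.000547) in LNCaP95 and -0.19 (SE 0.0543, adjusted p = 0.0184) in 22Rv1. Without CPSF1 sh1 replicate 3 the LNCaP value of FDPS was -0.17 (adjusted p = 0.00171). The call was lost in LNCaP without CTRL sh replicate 3 (-0.13, adjusted p = 0.0665) and in 22Rv1 without CTRL sh replicate 2 (-0.19) or 3 (-0.17, adjusted p up to 0.0939).

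The 11 enzymes from squalene to cholesterol showed a similar division by line. In LNCaP 5 rose and 2 fell (median 0.15), in LNCaP95 none rose and 7 fell (median -0.22), and in 22Rv1 none rose and 10 fell (median -0.42). The shares of all genes that rose and fell were 31.1% and 31.0% for LNCaP. They were 33.2% and 33.7% for LNCaP95 and 12.7% and 14.3% for 22Rv1. The LNCaP counts were again 5 and 2, with a median of 0.11, without CPSF1 sh1 replicate 3. FDFT1, squalene synthase and the first committed sterol step, went from 286 ± 5.65 to 317 ± 31.2 CPM in LNCaP without being called, from 410.0 ± 26.5 to 233 ± 20.8 in LNCaP95 and from 638 ± 17.8 to 435 ± 60.8 in 22Rv1. FDFT1 had a log2 fold change of 0.15 (SE 0.0661, adjusted p = 0.0627) in LNCaP, -0.82 (SE 0.0693, adjusted p = 9.74e-07) in LNCaP95 and -0.55 (SE 0.0886, adjusted p = 0.000519) in 22Rv1. The LNCaP value of FDFT1 was 0.11 (adjusted p = 0.112) without CPSF1 sh1 replicate 3. MSMO1, which removes methyl groups from lanosterol products, had log2 fold changes of 0.08 in LNCaP (not called), -0.96 in LNCaP95 and -0.48 in 22Rv1. The rate-limiting epoxidase gene SQLE was called in 22Rv1 alone (-0.43, adjusted p = 0.000156), with 0.10 in LNCaP and -0.088 in LNCaP95. LSS, lanosterol synthase, was likewise called in 22Rv1 alone with both hairpins together (-0.37), with 0.13 in LNCaP and -0.10 in LNCaP95. By hairpin LSS was higher with sh1 in LNCaP (0.23, adjusted p = 0.000101) and lower with sh2 in LNCaP95 (-0.19, adjusted p = 0.00364). The LNCaP sh1 value of LSS was 0.22 (adjusted p = 0.000543) without CPSF1 sh1 replicate 3.

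CYP51A1 encodes lanosterol demethylase and was the enzyme with the largest fall in 22Rv1. In LNCaP cells CYP51A1 stood at 11.7, 12.7 and 12.5 CPM with CTRL sh, at 13.8, 16.1 and 16.9 with CPSF1 sh1 and at 13, 14.3 and 15.2 with CPSF1 sh2. In LNCaP95 cells CYP51A1 stood at 30.4, 20.3 and 26.3 CPM with CTRL sh, at 23.5, 21.1 and 23.5 with CPSF1 sh1 and at 20.9, 24.5 and 26.4 with CPSF1 sh2. In 22Rv1 cells CYP51A1 stood at 46.8, 47 and 46.7 CPM with CTRL sh, at 31.2, 32.3 and 27.2 with CPSF1 sh1 and at 27.8, 27.8 and 27 with CPSF1 sh2. The groups did not overlap in LNCaP or in 22Rv1, in opposite directions, and overlapped in LNCaP95, where the controls themselves ranged from 20.3 to 30.4 CPM. For CYP51A1 the log2 fold change was 0.27 (SE 0.0962, adjusted p = 0.0236) in LNCaP, -0.15 (SE 0.114, adjusted p = 0.275) in LNCaP95 and -0.70 (SE 0.067, adjusted p = 1.67e-05) in 22Rv1. With CPSF1 sh1 replicate 3 left out, CYP51A1 had 0.23 (adjusted p = 0.0408) in LNCaP. The LNCaP call was lost without CTRL sh replicate 1 or 3 or CPSF1 sh1 replicate 2 (0.24 to 0.28, adjusted p up to 0.0937). In LNCaP95 the value turned to 0.0030 without CTRL sh replicate 1 and was called lower without CTRL sh replicate 2 (-0.29).

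HSD17B7 reduces the 3-keto group of sterol intermediates. In LNCaP cells HSD17B7 stood at 27, 26.5 and 26.6 CPM with CTRL sh, at 20.1, 19.4 and 20.8 with CPSF1 sh1 and at 15.4, 15.3 and 15.3 with CPSF1 sh2. In LNCaP95 cells HSD17B7 stood at 32.7, 33.8 and 28.3 CPM with CTRL sh, at 20.5, 23.1 and 18.1 with CPSF1 sh1 and at 17, 19.8 and 15.3 with CPSF1 sh2. In 22Rv1 cells HSD17B7 stood at 30.8, 28.6 and 29.7 CPM with CTRL sh, at 22.7, 24.1 and 25 with CPSF1 sh1 and at 19.5, 21.1 and 20.6 with CPSF1 sh2. Every CPSF1 sh library lay below every control in each line, with the sh2 libraries lowest in LNCaP and 22Rv1. The log2 fold change of HSD17B7 was -0.60 (SE 0.102, adjusted p = 0.000126) in LNCaP, -0.73 (SE 0.111, adjusted p = 8.94e-05) in LNCaP95 and -0.42 (SE 0.0815, adjusted p = 0.00191) in 22Rv1. HSD17B7 in LNCaP was at -0.66 (adjusted p = 4.3e-05) when CPSF1 sh1 replicate 3 was left out.

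Several later enzymes rose in LNCaP and fell in the other lines. SC5D, a desaturase, went from 81.9 ± 2.33 to 106 ± 10.7 CPM in LNCaP and from 101 ± 0.723 to 77.9 ± 3.33 in LNCaP95, and fell in 22Rv1 (-0.27). DHCR7, the reductase that yields cholesterol, rose in LNCaP (0.28) and fell in LNCaP95 (-0.22) and 22Rv1 (-0.52). EBP, the sterol isomerase, had the largest rise of the group in LNCaP, from 60.003 ± 4.7 to 88.6 ± 4.82 CPM (0.56, SE 0.0579, adjusted p = 1.07e-06). In 22Rv1 it fell by 0.27 on the log2 scale, a call that was lost without any 1 of the 3 CTRL sh libraries or any 1 of the 3 CPSF1 sh2 libraries (-0.23 to -0.28, adjusted p up to 0.104). NSDHL, a decarboxylating dehydrogenase, rose in LNCaP (0.26) and fell in 22Rv1 (-0.36). Its fall in LNCaP95 (-0.15, adjusted p = 0.0352) was lost without CTRL sh replicate 2 or 3 or any 1 of the 3 CPSF1 sh1 libraries (-0.12 to -0.14, adjusted p up to 0.137). TM7SF2, a sterol reductase, fell in LNCaP (-0.37) and LNCaP95 (-0.83) and was not called in 22Rv1 (-0.29, adjusted p = 0.109). By hairpin it had -0.069 with sh1 (adjusted p = 0.583) and -0.55 with sh2 (adjusted p = 6.52e-05) in 22Rv1.

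The SREBP system comprised both transcription factors, their escort SCAP, both INSIG genes and STARD4. Of its 6 genes, 4 fell and 1 rose in LNCaP, 5 fell in LNCaP95, and 4 fell and 1 rose in 22Rv1, with median log2 fold changes of -0.25, -0.86 and -0.38. Of all genes, 31.0% fell in LNCaP, 33.7% in LNCaP95 and 14.3% in 22Rv1, and 31.1%, 33.2% and 12.7% rose. With CPSF1 sh1 replicate 3 left out, 5 fell and 1 rose in LNCaP (median -0.29). SREBF2 encodes SREBP-2, the main activator of sterol genes. In LNCaP cells SREBF2 stood at 374, 389 and 384 CPM with CTRL sh, at 304, 306 and 312 with CPSF1 sh1 and at 277, 288 and 281 with CPSF1 sh2. In LNCaP95 cells SREBF2 stood at 479, 419.8 and 456 CPM with CTRL sh, at 355, 353 and 346 with CPSF1 sh1 and at 298, 304 and 304 with CPSF1 sh2. In 22Rv1 cells SREBF2 stood at 565, 563 and 551 CPM with CTRL sh, at 467, 489.8 and 495 with CPSF1 sh1 and at 410.1, 416 and 419.8 with CPSF1 sh2. The groups did not overlap in any line, and all sh2 libraries lay below all sh1 libraries. SREBF2 had a log2 fold change of -0.38 (SE 0.0407, adjusted p = 1.76e-06) in LNCaP, -0.47 (SE 0.0676, adjusted p = 5.92e-05) in LNCaP95 and -0.32 (SE 0.06004, adjusted p = 0.00173) in 22Rv1. Without CPSF1 sh1 replicate 3 the LNCaP value of SREBF2 was -0.39 (adjusted p = 1.27e-06).

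SREBF1 encodes SREBP-1, the main activator of fatty acid genes. In LNCaP cells SREBF1 stood at 596, 605 and 581 CPM with CTRL sh, at 531, 502 and 472 with CPSF1 sh1 and at 549.9, 519.9 and 497 with CPSF1 sh2. In LNCaP95 cells SREBF1 stood at 672, 532 and 610.1 CPM with CTRL sh, at 475, 451 and 435 with CPSF1 sh1 and at 395, 419 and 405 with CPSF1 sh2. In 22Rv1 cells SREBF1 stood at 369, 377 and 373 CPM with CTRL sh, at 306, 336 and 349 with CPSF1 sh1 and at 204, 226 and 221 with CPSF1 sh2. All CPSF1 sh libraries lay below the controls, and in 22Rv1 the sh1 libraries lay nearer to the controls than the sh2 libraries. For SREBF1 the log2 fold change was -0.21 (SE 0.0425, adjusted p = 0.000493) in LNCaP, -0.49 (SE 0.072, adjusted p = 6.49e-05) in LNCaP95 and -0.45 (SE 0.143, adjusted p = 0.0323) in 22Rv1. The LNCaP value of SREBF1 was -0.19 (adjusted p = 0.000637) without CPSF1 sh1 replicate 3. The 22Rv1 call was lost without any 1 of the 3 CTRL sh libraries or without CPSF1 sh2 replicate 2 or 3 (-0.39 to -0.45, adjusted p up to 0.101). The gene lies at chr17:17713713-17740325 (GRCh37) and overlaps RAI1 on the opposite strand.

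INSIG1 encodes a sterol-sensing retention protein and is itself an SREBP target. In LNCaP cells INSIG1 stood at 160.0, 167 and 157 CPM with CTRL sh, at 139.6, 156 and 162 with CPSF1 sh1 and at 129.8, 142 and 134 with CPSF1 sh2. In LNCaP95 cells INSIG1 stood at 432, 388 and 418 CPM with CTRL sh, at 211, 242 and 213 with CPSF1 sh1 and at 123, 133 and 119.6 with CPSF1 sh2. In 22Rv1 cells INSIG1 stood at 256, 254 and 262 CPM with CTRL sh, at 200.2, 193 and 194 with CPSF1 sh1 and at 136, 139 and 144 with CPSF1 sh2. In LNCaP95 and 22Rv1 the order was control, sh1, sh2 with no overlap, while in LNCaP CPSF1 sh1 replicate 3 lay within the control range. The log2 fold change of INSIG1 was -0.16 (SE 0.06004, adjusted p = 0.0266) in LNCaP, -1.25 (SE 0.197, adjusted p = 0.000121) in LNCaP95 and -0.62 (SE 0.114, adjusted p = 0.00145) in 22Rv1. With CPSF1 sh1 replicate 3 left out, INSIG1 had -0.20 (adjusted p = 0.00418) in LNCaP. The LNCaP call was lost without CTRL sh replicate 1 (-0.17) or 2 (-0.14, adjusted p up to 0.119).

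INSIG2 encodes the second retention protein. In LNCaP cells INSIG2 stood at 68.1, 68.4 and 57.7 CPM with CTRL sh, at 23.5, 28.2 and 29.99 with CPSF1 sh1 and at 30.6, 31.6 and 29.97 with CPSF1 sh2. In LNCaP95 cells INSIG2 stood at 96, 98.7 and 85.5 CPM with CTRL sh, at 43.8, 48.9 and 46.2 with CPSF1 sh1 and at 32.1, 36.2 and 31.2 with CPSF1 sh2. In 22Rv1 cells INSIG2 stood at 12.9, 11.8 and 11 CPM with CTRL sh, at 12.1, 9.98 and 11 with CPSF1 sh1 and at 8.41, 8.26 and 7.95 with CPSF1 sh2. The level with CPSF1 sh was 0.451 times that of the controls in LNCaP and 0.428 times in LNCaP95, with every CPSF1 sh library below every control. In 22Rv1, where the control level was lower, the sh1 libraries overlapped the controls and all sh2 libraries lay below them. INSIG2 had a log2 fold change of -1.15 (SE 0.0779, adjusted p = 1.62e-08) in LNCaP, -1.23 (SE 0.124, adjusted p = 3.46e-06) in LNCaP95 and -0.31 (SE 0.133, adjusted p = 0.0948) in 22Rv1. INSIG2 in LNCaP was at -1.16 (adjusted p = 4.83e-08) when CPSF1 sh1 replicate 3 was left out. In 22Rv1 it was called lower without CPSF1 sh1 replicate 1 (-0.39) or 3 (-0.36). By hairpin INSIG2 had -0.12 with sh1 (adjusted p = 0.484) and -0.54 with sh2 (adjusted p = 0.00129) in 22Rv1.

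STARD4, a cytosolic sterol carrier and SREBP target, had the largest fall of the 36 genes tested in LNCaP95. In LNCaP cells STARD4 stood at 33.8, 34.8 and 32.5 CPM with CTRL sh, at 30.8, 34.4 and 36.1 with CPSF1 sh1 and at 19.8, 22 and 23.6 with CPSF1 sh2. In LNCaP95 cells STARD4 stood at 75.2, 75.3 and 68.8 CPM with CTRL sh, at 30.7, 32.8 and 36 with CPSF1 sh1 and at 18.3, 18.7 and 17.4 with CPSF1 sh2. In 22Rv1 cells STARD4 stood at 74.6, 74.2 and 79 CPM with CTRL sh, at 57.5, 57.4 and 54.6 with CPSF1 sh1 and at 40.3, 38.7 and 41.8 with CPSF1 sh2. In LNCaP the sh1 libraries lay below, within and above the control range and the sh2 libraries below them, and in the other lines all CPSF1 sh libraries were below the controls. For STARD4 the log2 fold change was -0.29 (SE 0.155, adjusted p = 0.114) in LNCaP, -1.49 (SE 0.195, adjusted p = 2.61e-05) in LNCaP95 and -0.65 (SE 0.116, adjusted p = 0.00112) in 22Rv1. In LNCaP it was called lower without CPSF1 sh1 replicate 3 (-0.38, adjusted p = 0.028) or without CPSF1 sh1 replicate 2 (-0.38).

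SCAP, which carries both SREBP proteins, rose in LNCaP and 22Rv1. It went from 140.3 ± 5.36 to 167 ± 3.73 CPM in LNCaP and from 185 ± 5.66 to 210.3 ± 11.9 in 22Rv1, with every CPSF1 sh library above every control in both lines. The log2 fold change of SCAP was 0.25 (SE 0.0364, adjusted p = 2.85e-05) in LNCaP, 0.12 (SE 0.0541, adjusted p = 0.0611) in LNCaP95 and 0.18 (SE 0.0509, adjusted p = 0.0161) in 22Rv1. Without CPSF1 sh1 replicate 3 the LNCaP value of SCAP was 0.26 (adjusted p = 5.73e-05).

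**Figure D3:**
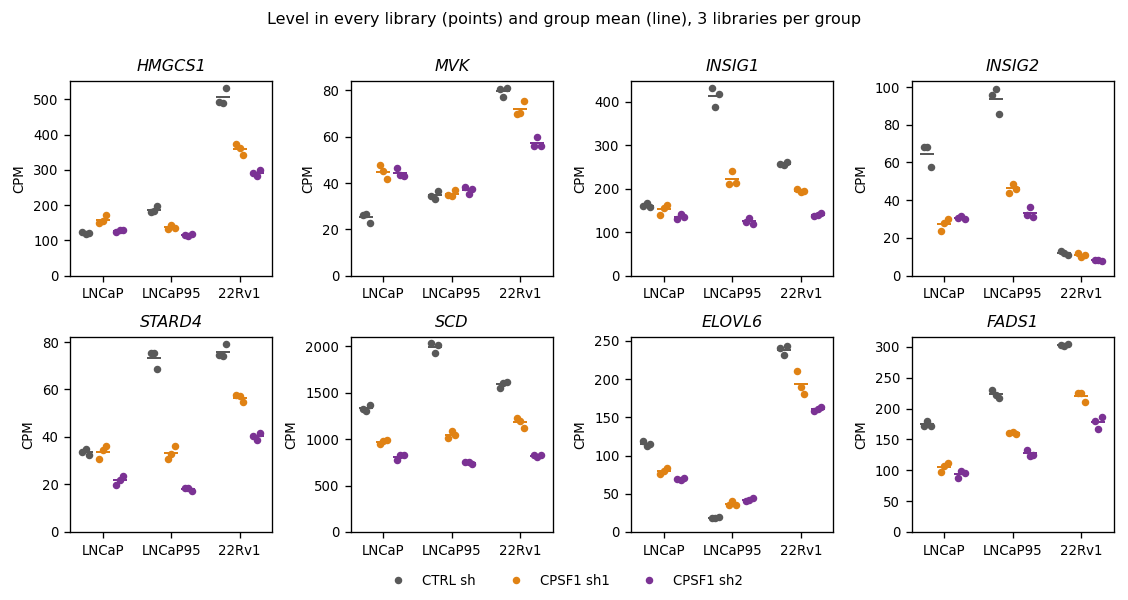
CPM of 8 genes in every library (points) with the group mean (line), for CTRL sh (grey), CPSF1 sh1 (orange) and CPSF1 sh2 (purple), 3 libraries per group, on linear axes from 0. INSIG1, STARD4 and SCD step down from control to sh1 to sh2 in LNCaP95 and 22Rv1, HMGCS1 and MVK lie above the controls in LNCaP with sh1, and ELOVL6 rises in LNCaP95 alone.

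The 4 genes of fatty acid synthesis fell together in LNCaP95 (median -0.45), while 1 fell in LNCaP (median -0.060) and 1 in 22Rv1 (median -0.098). The falls of 1 gene of 4 stand beside 31.0% of all genes in LNCaP and 14.3% in 22Rv1, and that of 4 of 4 beside 33.7% in LNCaP95. The LNCaP count was again 1 (median -0.063) without CPSF1 sh1 replicate 3. FASN, fatty acid synthase, fell from 3308 ± 542 to 1745 ± 95.1 CPM in LNCaP95, with every CPSF1 sh library (1623 to 1882 CPM) below every control (2705 to 3756 CPM). FASN had a log2 fold change of -0.10 (SE 0.0479, adjusted p = 0.0775) in LNCaP, -0.92 (SE 0.0826, adjusted p = 1.4e-06) in LNCaP95 and -0.13 (SE 0.05002, adjusted p = 0.0746) in 22Rv1. The LNCaP value of FASN was -0.094 (adjusted p = 0.124) without CPSF1 sh1 replicate 3. ACLY fell in LNCaP (-0.17, adjusted p = 0.000338) and LNCaP95 (-0.33, adjusted p = 3.9e-05) and was not called in 22Rv1 (-0.046). ACACA, acetyl-CoA carboxylase 1, which makes malonyl-CoA, fell in LNCaP95 alone (-0.31), with -0.0012 in LNCaP and -0.07 in 22Rv1. ACSS2, which makes acetyl-CoA from acetate, fell in LNCaP95 (-0.57) and in 22Rv1 (-0.28, lost without CTRL sh replicate 2 at -0.24).

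SCD and FADS1 fell in every line. Of the 5 elongation and desaturation genes, 4 fell in LNCaP, 4 fell and 1 rose in LNCaP95, and 4 fell in 22Rv1, with medians of -0.63, -0.63 and -0.43. The shares of all genes that fell were 31.0%, 33.7% and 14.3%, and 33.2% rose in LNCaP95. In LNCaP again 4 fell (median -0.66) without CPSF1 sh1 replicate 3. SCD encodes the stearoyl-CoA desaturase, among the 2 most abundant of the 37 genes per kilobase in each line. In LNCaP cells SCD stood at 1322, 1304 and 1373 CPM with CTRL sh, at 947, 983 and 991 with CPSF1 sh1 and at 775, 832 and 833 with CPSF1 sh2. In LNCaP95 cells SCD stood at 2036, 1924 and 2019 CPM with CTRL sh, at 1007, 1092 and 1044 with CPSF1 sh1 and at 751, 757 and 733 with CPSF1 sh2. In 22Rv1 cells SCD stood at 1555, 1609.6 and 1621 CPM with CTRL sh, at 1232, 1192 and 1118 with CPSF1 sh1 and at 826, 808 and 824 with CPSF1 sh2. In every line all controls were highest, all sh1 libraries in the middle and all sh2 libraries lowest. For SCD the log2 fold change was -0.58 (SE 0.0667, adjusted p = 3.36e-06) in LNCaP, -1.15 (SE 0.121, adjusted p = 4.86e-06) in LNCaP95 and -0.67 (SE 0.122, adjusted p = 0.00126) in 22Rv1. With CPSF1 sh1 replicate 3 left out, SCD had -0.61 (adjusted p = 1.77e-06) in LNCaP.

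FADS1 encodes the delta-5 desaturase of polyunsaturated fatty acids. In LNCaP cells FADS1 stood at 172, 180.4 and 172 CPM with CTRL sh, at 97.5, 106 and 112 with CPSF1 sh1 and at 87.5, 98.7 and 95.4 with CPSF1 sh2. In LNCaP95 cells FADS1 stood at 230.0, 223 and 217 CPM with CTRL sh, at 161, 162 and 159 with CPSF1 sh1 and at 133, 123 and 125 with CPSF1 sh2. In 22Rv1 cells FADS1 stood at 303, 301 and 305 CPM with CTRL sh, at 225, 225 and 211 with CPSF1 sh1 and at 180.2, 167 and 186 with CPSF1 sh2. Every CPSF1 sh library lay below every control. The log2 fold change of FADS1 was -0.81 (SE 0.0583, adjusted p = 2.83e-08) in LNCaP, -0.63 (SE 0.0884, adjusted p = 4.51e-05) in LNCaP95 and -0.61 (SE 0.0802, adjusted p = 0.000143) in 22Rv1. FADS1 in LNCaP was at -0.85 (adjusted p = 9.41e-09) when CPSF1 sh1 replicate 3 was left out. FADS2, the delta-6 desaturase, overlaps FADS1 on the opposite strand of chromosome 11 (chr11:61560452-61634826 and chr11:61567099-61596790, GRCh37). It fell in LNCaP (-0.76, SE 0.0472) and LNCaP95 (-0.59, SE 0.0683), with -0.28 in 22Rv1 (adjusted p = 0.0986), where it was called lower without CPSF1 sh1 replicate 3 (-0.36). By hairpin FADS2 had -0.056 with sh1 (adjusted p = 0.509) and -0.56 with sh2 (adjusted p = 1.26e-06) in 22Rv1.

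The elongases differed between lines. ELOVL6 fell from 115 ± 3.04 to 74.7 ± 5.93 CPM in LNCaP and from 238 ± 6.66 to 177 ± 20.2 in 22Rv1, and rose from 18.8 ± 0.968 to 39.7 ± 3.6 in LNCaP95. ELOVL6 had a log2 fold change of -0.63 (SE 0.0567, adjusted p = 2.74e-07) in LNCaP, 1.07 (SE 0.0877, adjusted p = 7.34e-07) in LNCaP95 and -0.43 (SE 0.0755, adjusted p = 0.00101) in 22Rv1. Without CPSF1 sh1 replicate 3 the LNCaP value of ELOVL6 was -0.66 (adjusted p = 8.42e-08). ELOVL5, which extends polyunsaturated chains, fell in LNCaP95 (-0.86) and 22Rv1 (-0.36) and had 0.0063 in LNCaP (adjusted p = 0.951), where its sign changed with the setting. There the hairpins went opposite ways, with 0.16 for sh1 (adjusted p = 0.000143) and -0.17 for sh2 (adjusted p = 0.000101), and the difference of -0.33 was called (adjusted p = 5.85e-07). These were 0.17, -0.17 and -0.34 (adjusted p = 2.07e-06 for the difference) without CPSF1 sh1 replicate 3.

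LXR is the sterol-activated receptor that drives cholesterol export, and its gene NR1H3 was grouped with 3 of its targets. In LNCaP 2 rose and 1 fell, in LNCaP95 none of 3 tested was called, and in 22Rv1 1 rose and 1 fell. Counts of 3 to 4 genes stand beside 31.1% of all genes that rose and 31.0% that fell in LNCaP and 12.7% and 14.3% in 22Rv1. Without LNCaP CPSF1 sh1 replicate 3, 1 rose and 1 fell in LNCaP. In LNCaP cells ABCA1 stood at 2.44, 2.76 and 2.98 CPM with CTRL sh, at 4.79, 3.69 and 2.92 with CPSF1 sh1 and at 3.72, 3.96 and 4.23 with CPSF1 sh2. In LNCaP95 cells ABCA1 stood at 0.145, 0.18 and 0.098 CPM with CTRL sh, at 0.734, 0.615 and 1.003 with CPSF1 sh1 and at 0.837, 1.07 and 1.45 with CPSF1 sh2. In 22Rv1 cells ABCA1 stood at 2.39, 2.11 and 2.12 CPM with CTRL sh, at 3.5, 3.33 and 2.63 with CPSF1 sh1 and at 3.71, 4.91 and 4.07 with CPSF1 sh2. The levels were low, with 20 to 54 counts per library in LNCaP and 22Rv1 and 1 to 16 in LNCaP95, and the groups overlapped in LNCaP and did not in the other lines. Log2 fold changes of ABCA1 were 0.50 (SE 0.162, adjusted p = 0.0145) in LNCaP and 0.73 (SE 0.194, adjusted p = 0.0128) in 22Rv1, and the LNCaP call was lost without CTRL sh replicate 1 (0.43, adjusted p = 0.0671). The LNCaP value of ABCA1 was 0.56 (adjusted p = 0.00421) without CPSF1 sh1 replicate 3. NR1H3 was called higher in LNCaP (0.22, adjusted p = 0.0474), a call that was kept for 1 of 9 libraries left out (0.14 to 0.22 where it was lost, adjusted p up to 0.243), among them CPSF1 sh1 replicate 3 (0.21). MYLIP, a ubiquitin ligase and LXR target, fell in LNCaP (-0.19, lost without CTRL sh replicate 3 at -0.15) and in 22Rv1 (-0.33). ABCG1, the other exporter, was not called in LNCaP (-0.21) or LNCaP95 (0.064), and in LNCaP it was called lower without CPSF1 sh2 replicate 2 (-0.32). By hairpin ABCG1 in LNCaP was lower with sh1 (-0.51, adjusted p = 0.00044) and not called with sh2 (0.011). The sh1 value was -0.50 (adjusted p = 0.00143) without CPSF1 sh1 replicate 3.

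The second question was whether the 2 hairpins differed in effect. Each was compared with the same CTRL sh libraries, so that both comparisons share their controls, and the difference between the hairpins was tested directly. In LNCaP, 16 of 37 genes were higher (31.2% of all genes) and 12 lower (31.3%) with CPSF1 sh1, and 7 higher (32.1%) and 18 lower (32.5%) with CPSF1 sh2. The direct test put 20 genes lower with sh2 than with sh1 (8.24% of all genes) and 1 higher (6.53%). Without CPSF1 sh1 replicate 3 these counts were 15 and 13 for sh1, 7 and 19 for sh2, and 14 lower and 1 higher for the difference, against 7.47 and 6.34% of all genes.

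Among the 18 sterol enzymes in LNCaP, 13 were higher and 2 lower with sh1 (median 0.29), against 5 higher and 5 lower with sh2 (median 0.031), and 12 differed between the hairpins, all lower with sh2. Of all genes, 31.2% were higher and 31.3% lower with sh1. With sh2 these shares were 32.1% and 32.5%, and the sh2 counts were near them. The direct test put 8.24% of all genes lower with sh2. Without CPSF1 sh1 replicate 3, 11 of the 18 enzymes were higher and 2 lower with sh1, and 8 differed. HMGCS1 had 0.39 with sh1 and 0.066 with sh2, a difference of -0.32 (SE 0.0447, adjusted p = 6e-05), or -0.27 (adjusted p = 0.000254) without that library. IDI1 had 0.31 and -0.11, and TM7SF2 -0.15 and -0.60. The widest gap was that of STARD4, with 0.0098 and -0.63 (difference -0.64, SE 0.0794, adjusted p = 1.72e-05, and -0.59 without CPSF1 sh1 replicate 3). MVK, EBP and SCAP rose with both hairpins, by 0.82 and 0.81, 0.54 and 0.58, and 0.27 and 0.24. The sh1 values without CPSF1 sh1 replicate 3 were 0.24 for IDI1, -0.10 for TM7SF2, 0.87 for MVK, 0.52 for EBP and 0.28 for SCAP. The 1 gene higher with sh2 than with sh1 was ABCG1 (0.52).

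In LNCaP95, 27 genes were lower (33.3% of all genes) and 1 higher (33.1%) with sh1, and 26 lower (36.9%) and 3 higher (36.5%) with sh2. The direct test put 17 lower with sh2 (17.7% of all genes) and 2 higher (16.5%). STARD4 fell by 1.15 with sh1 and by 2.01 with sh2 on the log2 scale (difference -0.87, SE 0.0788, adjusted p = 1.02e-07), and INSIG1 by 0.90 and 1.72. FASN, ACLY and ACACA were not called between hairpins (differences -0.12, -0.011 and 0.044).

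In 22Rv1, 24 genes were lower (11.1% of all genes) and 1 higher (8.79%) with sh1, and 31 lower (20.9%) and 2 higher (19.1%) with sh2. The direct test put 24 lower with sh2 (5.85% of all genes) and none higher (5.47%). All 18 sterol enzymes were lower with sh2, 14 of them with sh1, and 15 were lower with sh2 than with sh1. SREBF1 fell by 0.18 with sh1 and by 0.78 with sh2 (difference -0.61, SE 0.0515, adjusted p = 4.43e-06), and SCD by 0.43 and 0.96. CPSF1 mRNA itself was not called between hairpins in any line. The differences were -0.14 in LNCaP (SE 0.0527, adjusted p = 0.0773), 0.00041 in LNCaP95 (SE 0.0841, adjusted p = 0.998) and 0.067 in 22Rv1 (SE 0.0688, adjusted p = 0.578). These values are of mRNA, not protein, and do not show that both hairpins lowered CPSF1 equally.

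The third question was whether the response differed between lines, tested as an interaction over all 27 libraries for 35 genes. Each hairpin was its own group here, and the effect was the mean of both. The gap between hairpins therefore did not enter these standard errors and p-values, unlike those of the pooled fold changes. They measure the spread between replicates of a group. Relative to LNCaP, the knockdown effect was lower in LNCaP95 for 23 genes (28.5% of all genes) and higher for 3 (31.2%), with a median difference of -0.38. In 22Rv1 it was lower than in LNCaP for 21 genes (25.0%) and higher for 5 (25.3%), with a median of -0.26. Leaving out LNCaP CPSF1 sh1 replicate 3 gave the same counts. Between 22Rv1 and LNCaP95 it was higher in 22Rv1 for 16 genes (30.8%) and lower for 11 (30.9%), with a median of 0.057. The comparisons with LNCaP share the LNCaP libraries.

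Of the 18 sterol enzymes, 14 had a lower effect in LNCaP95 than in LNCaP and 15 in 22Rv1 than in LNCaP, and none had a higher one. Over all genes the effect was lower for 28.5% and 25.0%, and higher for 31.2% and 25.3%. HMGCS1, NSDHL, SC5D and DHCR7 were called higher in LNCaP and lower in both other lines, and the difference was called each time. For HMGCS1 it was -0.78 (SE 0.0589, adjusted p = 1.33e-12) between LNCaP95 and LNCaP and -0.85 (SE 0.0565, adjusted p = 1.62e-13) between 22Rv1 and LNCaP. MVK, CYP51A1 and EBP were called higher in LNCaP and lower in 22Rv1, and the difference for MVK was -1.11 (SE 0.0745, adjusted p = 2.03e-13). ELOVL6 went the other way, with an effect in LNCaP95 that was higher by 1.72 (SE 0.0796, adjusted p = 1.1e-17) than in LNCaP. The effects on STARD4 and INSIG1 were lower in LNCaP95 than in LNCaP, with differences of -1.25 (SE 0.0825, adjusted p = 5.9e-14) and -1.13 (SE 0.0648, adjusted p = 2.3e-15).

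Because CPSF1 acts where transcripts end, the expressed neighbours of each gene were located from the positions in the deposited table (GRCh37). An expressed gene on the same strand ended within 10 kb upstream of 11 of the 37 genes, 2 overlapped an expressed gene on the same strand (TM7SF2 with VPS51, FADS2 with FEN1), and 6 overlapped an expressed gene on the opposite strand. Expressed here means above 2 CPM in each of the 27 libraries, so that neighbours active in only some lines were not counted. The shares over all genes were not counted, and the neighbours named below are examples. The nearest was PORCN, 344 bases upstream of EBP at chrX:48379546-48387104. PORCN had log2 fold changes of -0.54 (adjusted p = 0.000116) in LNCaP, -0.39 (adjusted p = 0.00708) in LNCaP95 and -0.016 (adjusted p = 0.944) in 22Rv1, while EBP had 0.56, 0.10 and -0.27. CCDC57, 3128 bases upstream of FASN, fell in each line, by 0.98 (adjusted p = 3.14e-09), 0.64 (adjusted p = 1.25e-06) and 0.56 (adjusted p = 2.87e-05) on the log2 scale. FEN1 rose by 0.41 (adjusted p = 4.82e-06) in LNCaP and 0.63 (adjusted p = 1.47e-05) in LNCaP95, where FADS2 fell. The part of neighbouring transcripts in these counts was not tested.

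Another 38 genes of lipid metabolism that were listed beside the 37 (isoprenoid side branches, SREBP proteases and degradation factors, acyl-CoA synthetases, further elongases and desaturases, and triglyceride synthesis) were examined in the same way. In LNCaP 18 of 35 tested rose (31.1% of all genes) and 8 fell (31.0%), with a median of 0.12. In LNCaP95 11 of 36 rose (33.2%) and 13 fell (33.7%), near the shares of all genes, with a median of -0.045. In 22Rv1 6 of 36 rose (12.7%) and 12 fell (14.3%), with a median of -0.10. Among the genes tested, the largest changes in LNCaP were in SCD5, another stearoyl-CoA desaturase, which fell from 18.4 ± 1.55 to 5.53 ± 0.537 CPM (log2 fold change -1.73, SE 0.1004, adjusted p = 3.23e-09), ELOVL7, a long-chain elongase, which rose from 38.6 ± 1.8 to 93.3 ± 5.97 CPM (log2 fold change 1.27, SE 0.0604, adjusted p = 4.99e-10), and ACSL3, an acyl-CoA synthetase, which rose from 242 ± 4.44 to 488 ± 16.2 CPM (log2 fold change 1.01, SE 0.0365, adjusted p = 3.06e-11). In LNCaP95 they were in PDSS1, of ubiquinone synthesis, which rose from 13.2 ± 1.3 to 28.4 ± 3.79 CPM (log2 fold change 1.10, SE 0.123, adjusted p = 7.47e-06), SCD5, which rose from 9.88 ± 0.238 to 20.9 ± 1.31 CPM (log2 fold change 1.07, SE 0.0845, adjusted p = 5.45e-07), and AGPAT2, of triglyceride synthesis, which fell from 46.4 ± 4.03 to 23 ± 3.34 CPM (log2 fold change -1.01, SE 0.106, adjusted p = 4.9e-06). In 22Rv1 they were in ELOVL2, which rose from 18.5 ± 1.17 to 25.6 ± 1.63 CPM (log2 fold change 0.48, SE 0.0778, adjusted p = 0.000609), ELOVL7, which fell from 31 ± 2.3 to 22.6 ± 1.79 CPM (log2 fold change -0.45, SE 0.0788, adjusted p = 0.000975), and RXRA, the partner of LXR, which rose from 32.8 ± 2.55 to 43.7 ± 4.1 CPM (log2 fold change 0.41, SE 0.0828, adjusted p = 0.00247). ELOVL2 in LNCaP (0.469 to 0.877 CPM with CTRL sh against 5.15 to 10.3 with CPSF1 sh) and ACSL5 in LNCaP95 (0.449 to 0.579 against 2.26 to 4.12) were too low in the controls to be tested, had larger ratios of their means, and are named after their values were seen. Whether these effects differed between lines was not tested here.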

How the data were processed

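Raw read counts per gene were deposited by the authors in a single table for all 27 libraries. Stranded mRNA libraries were aligned with HISAT2 2.1.0 to GRCh37 and counted on Ensembl release 87 genes with featureCounts of Subread 2.0.3, per the labels and the submitters' processing notes. Libraries held 8515624 to 15904518 counts. The values used here are those counts and CPM scaled by TMM. CPSF1 sh and CTRL sh were compared within each line with edgeR 4.0.16 in R 4.3.3 (quasi-likelihood test, Benjamini-Hochberg adjustment over all genes tested, genes above 2 CPM in all 9 libraries), the hairpins as separate groups, and the lines by interaction terms over all libraries. The interaction terms kept the hairpins as separate groups. DESeq2 1.42.0, other scalings and filters, the replicate number as a block and each library left out were alternatives. The fits were tested on simulated data with 200 changed genes. Every-library values are given for genes called the same way in all 3 lines, for the 3 largest called changes per line whose groups did not overlap, and for SREBF1, SREBF2, INSIG1 and INSIG2. The genes and lists were chosen with earlier results of these data known. The RefSeq promoter windows are from another build (GRCh38.p14) than the counts, and no coordinates were converted.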

Additional observations from a re-analysis of the deposited data

Results flagged for a closer look

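A gene is given below where it was called in opposite directions in 2 lines or had 1 of the 3 largest differences in effect between them, by the interaction test of edgeR over 27 libraries. In that test the hairpins were separate groups, so that its p-values do not include the spread between hairpins. The values are differences in log2 fold change between the lines named.

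Between LNCaP95 and LNCaP, the effect of CPSF1 knockdown was lower in LNCaP95 for HMGCS1 (-0.78), NSDHL (-0.38), SC5D (-0.72), DHCR7 (-0.48), INSIG1 (-1.13) and STARD4 (-1.25). It was higher in LNCaP95 for ELOVL6 (1.72), the elongase from palmitate to stearate. INSIG1 fell in both lines and STARD4 was not called in LNCaP, so that these differ in size and not in called direction.

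Between 22Rv1 and LNCaP, the effect was lower in 22Rv1 for HMGCS1 (-0.85), MVK (-1.11), CYP51A1 (-0.96), NSDHL (-0.61), EBP (-0.83), SC5D (-0.62) and DHCR7 (-0.79), which are the 7 sterol enzymes that rose in LNCaP. Without LNCaP CPSF1 sh1 replicate 3 the difference for HMGCS1 was -0.83, for MVK -1.14 and for CYP51A1 -0.93.

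Between 22Rv1 and LNCaP95, the effect was higher in 22Rv1 for INSIG2 (0.92) and STARD4 (0.91) and lower for ELOVL6 (-1.52). The largest adjusted p among all of these was 1.75e-05.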

How the results depend on the processing

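Scaling by RLE size factors and the newer edgeR 4 quasi-likelihood form kept the side of the threshold for all genes in all lines. The hairpins as separate groups, with the mean of their effects, moved the most genes in LNCaP. There 7 of the genes not called with the hairpins pooled were called, as were 3 in LNCaP95 and 4 in 22Rv1. No call was lost with that setting. The count of genes higher in LNCaP95 was 1, and it was 4 with library size alone, 2 with filterByExpr, 2 with no filter and 2 with the hairpins as separate groups. It ranged from 1 to 2 with each library left out, and the count of genes higher in 22Rv1, which was 2, ranged from 0 to 2. Genes higher in LNCaP ranged from 7 to 12 and lower from 11 to 16, genes lower in LNCaP95 from 24 to 26 and in 22Rv1 from 23 to 32. DESeq2 did not call NR1H3 in LNCaP, NSDHL in LNCaP95 or SREBF1 in 22Rv1.

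Signs changed only for values that were not called. ELOVL5 in LNCaP (0.0063) was -0.0011 with library size alone, -0.00701 with filterByExpr, -0.020 with no filter, -0.0021 with separate hairpins, and -0.024 or lower without any 1 of its CPSF1 sh1 libraries. NR1H3 in LNCaP95 was 0.033 with library size alone. With a library left out, ACACA in LNCaP ranged from -0.036 to 0.025, ACSS2 in LNCaP ranged from -0.053 to 0.0054, ELOVL5 in LNCaP from -0.036 to 0.037, CYP51A1 in LNCaP95 from -0.29 to 0.0030 and ABCG1 in LNCaP95 from -0.027 to 0.17. The causes were not tested.

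With the replicate number as a block, LNCaP had 9 genes higher and 14 lower, LNCaP95 had 1 and 25, and 22Rv1 had 2 and 25, with HMGCS1 in LNCaP, NSDHL in LNCaP95, and EBP and SREBF1 in 22Rv1 no longer called. Deviations of same-numbered libraries correlated at -0.057 to 0.25 in LNCaP, -0.24 to 0.28 in LNCaP95 and -0.11 to 0.20 in 22Rv1. Libraries with different numbers correlated at -0.25 to 0.067, -0.30 to 0.23 and -0.29 to 0.26. The medians were 0.062 against -0.021, 0.030 against -0.049 and -0.0029 against -0.012. With 9 same-numbered pairs per line, these values do not settle whether the numbers pair the samples. Depth limited ABCA1 in LNCaP95, with 1 to 2 counts in each CTRL sh library.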
